A study of Mus musculus with 6 samples.

Results

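The *Kcnq1* imprinted domain lies at the distal end of mouse chromosome 7 and holds the genes described here, *Ascl2*, *Tspan32*, *Cd81*, *Tssc4*, *Kcnq1*, *Cdkn1c*, *Slc22a18*, *Phlda2*, *Nap1l4* and *Osbpl5*, in that order along the chromosome. These 10 genes were listed by symbol, each matched 1 entry of the table, and together they made up 10 of its 24207 entries. *Phlda2* had been picked out by its difference between the genotypes in these same embryos, so its values are a description and were not tested.

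Male embryos at E9.5 were sequenced, 3 that were Smchd1+/+ (wildtype) and 3 that were Smchd1MommeD1/MommeD1 (mutant). Smchd1 is a noncanonical SMC protein needed for X inactivation, and MommeD1 is a chemically induced nonsense allele of its gene. The embryos came from natural matings of heterozygous parents, were genotyped from their yolk sacs and were frozen, so each value averages all tissues of the embryo. The labels give the background of every embryo as C57Bl6/J x FVB/n, whereas the study's text describes a backcross to 129 T2/SvEms. The table holds 1 value per genotype, pooled by the authors over its embryos, as FPKM, the number of fragments scaled to the length of the transcript and to the mapped fragments of the library. The spread between embryos is therefore not known, no test across embryos was made here, and the depth of the libraries is unknown. The table also holds the authors' own test of the genotypes, which was not used. *Smchd1* itself was at 2.12 FPKM in the mutant pool and 34.0 FPKM in the wildtype pool.

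Imprinted genes are expressed mainly from the copy inherited from one parent. In the *Kcnq1* domain the paternal chromosome produces a long noncoding RNA, *Kcnq1ot1*, from a control region inside *Kcnq1*, and neighbouring genes on that chromosome are silenced in cis. *Cdkn1c*, *Phlda2*, *Slc22a18* and, early in development, *Kcnq1* are expressed from the maternal copy in embryo and placenta, while most genes farther out, such as *Ascl2*, *Cd81*, *Tspan32*, *Tssc4* and *Osbpl5*, are known for imprinting in the placenta. The domain is known for restraint of growth, since *Cdkn1c* encodes a cell cycle inhibitor and *Phlda2* limits the size of the placenta.

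The sequence before the start of *Phlda2* is shown first because this gene differed most, and that of *Tspan32* because it was the other member past 2-fold, in the opposite direction. *Cd81*, whose level was nearly equal in both pools, and *Kcnq1ot1*, the silencing RNA, are given for comparison. Each run holds the 250 bases before the RefSeq start, read 5′ to 3′ on the strand of the gene, with CG dinucleotides and the motif TATAAA in capitals.
Phlda2 (GRCm38.p6, chr7:143502525-143502774, minus strand): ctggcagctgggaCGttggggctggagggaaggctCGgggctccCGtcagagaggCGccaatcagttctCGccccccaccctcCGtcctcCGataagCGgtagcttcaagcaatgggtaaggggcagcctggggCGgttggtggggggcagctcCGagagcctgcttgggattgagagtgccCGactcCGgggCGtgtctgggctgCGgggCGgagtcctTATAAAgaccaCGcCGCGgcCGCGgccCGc
Tspan32 (GRCm38.p6, chr7:143004796-143005045, plus strand): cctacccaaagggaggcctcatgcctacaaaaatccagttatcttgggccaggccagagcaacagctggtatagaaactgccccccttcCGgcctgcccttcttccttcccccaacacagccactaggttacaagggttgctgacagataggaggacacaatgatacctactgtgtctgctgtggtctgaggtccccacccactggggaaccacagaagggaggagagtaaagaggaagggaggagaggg
Cd81 (GRCm38.p6, chr7:143052500-143052749, plus strand): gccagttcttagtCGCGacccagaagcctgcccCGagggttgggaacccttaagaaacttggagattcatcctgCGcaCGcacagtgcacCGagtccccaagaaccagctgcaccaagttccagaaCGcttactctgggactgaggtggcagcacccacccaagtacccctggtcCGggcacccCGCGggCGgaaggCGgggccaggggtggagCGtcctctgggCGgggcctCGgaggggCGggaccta
Kcnq1ot1 (GRCm38.p6, chr7:143296548-143296797, minus strand): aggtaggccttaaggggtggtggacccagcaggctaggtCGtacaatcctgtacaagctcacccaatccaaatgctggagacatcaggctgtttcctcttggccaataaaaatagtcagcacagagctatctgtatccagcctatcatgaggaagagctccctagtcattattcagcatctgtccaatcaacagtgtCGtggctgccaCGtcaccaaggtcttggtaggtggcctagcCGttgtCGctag

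The *Phlda2* stretch held 21 CG dinucleotides, a number reached by 16.3% of 32851 RefSeq promoters of the same length, whose median was 6. *Cd81* had 16, *Tssc4* 17 and *Ascl2* 19, but *Tspan32* had 1 and *Slc22a18* none (0). The promoters listed for *Osbpl5* had 14, 1 and 18. *Kcnq1ot1* had 5. TATAAA, searched on both strands, occurred in the *Phlda2* stretch, with its first base 30 bases before the start, and in 12.4% of all promoters. It was not found in the windows of the other members. GGGCGG, which contains a CG, was found on either strand 2 times for *Phlda2*, 3 times for *Cd81* and 1 time for *Ascl2*. It was found 3 times in the *Osbpl5* promoter with 18 CG, and at least once in 32.7% of promoters. CCAAT on either strand occurred 1 time each for *Phlda2*, *Tssc4* and the *Osbpl5* promoter with 14 CG. It occurred 3 times each for *Ascl2* and *Kcnq1ot1*, and in 33.8% of promoters. The RefSeq table gave promoters for 7 of the 10 members and for *Kcnq1ot1*, and none is given here for *Cdkn1c*, *Kcnq1* and *Nap1l4*.

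In the domain the genotypes were farthest apart at *Phlda2*, which was lower in the mutant pool. *Tspan32* was just past 2-fold higher, at a level where ratios spread widely, and *Cdkn1c* was 1.42 times as high, which is below 2-fold. *Cd81*, *Tssc4*, *Nap1l4* and *Osbpl5* were at nearly the same level in both pools. *Ascl2*, *Kcnq1* and *Slc22a18* had a mean below 1 FPKM, and for these only the levels are given. Differences are log2 ratios of mutant over wildtype FPKM with 0.1 FPKM added to each value, taken over the 12463 entries of 1 FPKM or more on average, and a 2-fold ratio in either direction was counted as a difference. Of the 7 members that passed this filter, 1 was at least 2-fold lower and 1 at least 2-fold higher. Over all entries that passed, 0.514% were at least 2-fold lower and 0.979% at least 2-fold higher, or 1.49% in all. At 1.5-fold *Phlda2* and *Tspan32* were again the members past the threshold, against 1.47% of entries lower, 3.51% higher and 4.98% in all. At 3-fold it was *Phlda2* alone, against 0.128% lower, 0.257% higher and 0.385% in all. Since the choice of members used this contrast, nothing is read from their count. The median log2 ratio was 0.14 over the 7 members and -0.01 over all entries that passed.

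**Figure D1:**
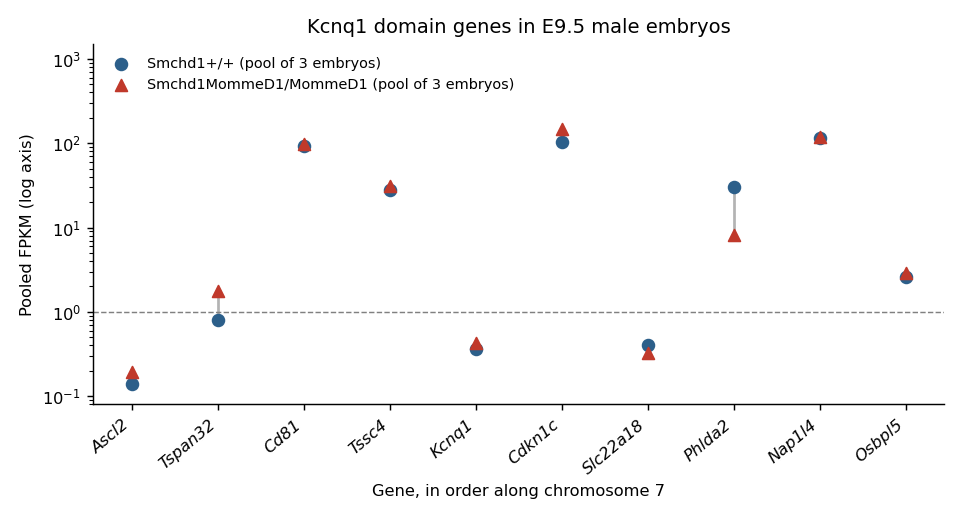
Pooled FPKM (log axis) of the 10 genes in chromosome order, with circles for Smchd1+/+ and triangles for Smchd1MommeD1/MommeD1, each the pool of 3 embryos with no error available, and a dashed line at 1 FPKM. *Phlda2* stands out with 30.5 FPKM in the wildtype and 8.14 FPKM in the mutant pool, and most other pairs nearly coincide.

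*Phlda2* encodes a small protein that is mostly a pleckstrin homology domain, a fold that binds membrane lipids. Its entry spans 977 bp of chromosome 7 (MM10) from 143501548 to 143502524. It was at 8.14 FPKM in the mutant pool and 30.5 FPKM in the wildtype pool, so that the wildtype value was 3.74 times the mutant value. The log2 ratio was -1.89. In the wildtype pool *Phlda2* was the fourth most abundant of the 10 genes, at percentile 87.8 of all entries, and in the mutant pool it was the fifth, at percentile 69.6.

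Few entries of the whole table lay as low. Of the 12463 entries that passed, 11 had a log2 ratio at or below that of *Phlda2*, itself included. The mutant value was listed at 0 for 6 of these, 5 of them named for small RNAs such as *Mirlet7d* and *Snora33*, and an exact 0 in a table of this kind can be a failed estimate. The other 5 were *Smchd1*, *Spink3*, *1700011H14Rik*, an entry without a gene symbol and *Phlda2*. Among entries of 10 FPKM or more on average and above 0 in both pools, 2 were this low, *Smchd1* and *Phlda2*. Among the 500 entries nearest to *Phlda2* in mean FPKM, from 17.9 to 20.8 FPKM, the central 95% of log2 ratios ran from -0.28 to 0.29, and the 1 entry as low was *Smchd1*.

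**Figure D2:**
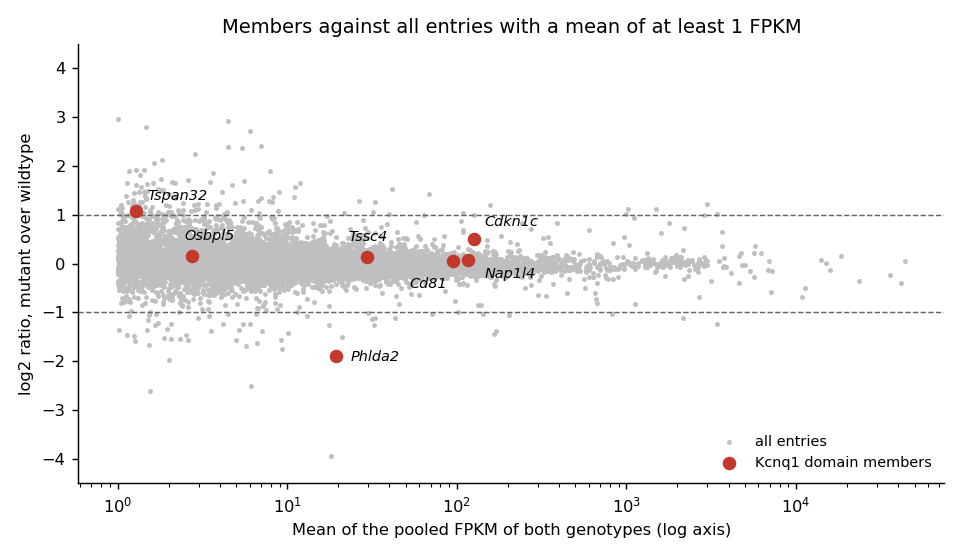
Log2 ratio of mutant over wildtype FPKM (0.1 FPKM added) against the mean FPKM of both pools (log axis) for all entries with a mean of at least 1 FPKM (grey) and the members (red), with dashed lines at 2-fold. *Phlda2* lies below the cloud at its level, *Cdkn1c* at its upper edge, and 10 entries beyond 4.5 on the vertical axis are not drawn.

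*Cdkn1c* encodes p57, an inhibitor of cyclin-dependent kinases that lets dividing cells leave the cell cycle. Its entry lies from 143458337 to 143461050. The gene was at 148 FPKM in the mutant and 104 FPKM in the wildtype pool, a log2 ratio of 0.51. It was the most abundant member in the mutant pool and second to *Nap1l4* in the wildtype pool. Of the 500 entries nearest in mean FPKM, 7 (1.4%) had a log2 ratio at least as high, and their central 95% ran from -0.42 to 0.26.

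The ratio of *Phlda2* to *Cdkn1c* within a pool does not depend on how the pools were scaled against each other. This comparison was added after the values were seen. The *Phlda2* level was 0.0549 times that of *Cdkn1c* in the mutant pool and 0.292 times in the wildtype pool. Since the pair was picked for its opposite directions, the gap between these ratios is no evidence beyond the values of each gene.

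Between *Cdkn1c* and *Phlda2* lies *Slc22a18*, a gene for a carrier of organic cations, from 143473755 to 143499332. It was at 0.328 FPKM in the mutant and 0.405 FPKM in the wildtype pool. Its entry ends 2215 bp before that of *Phlda2*, so a gene of low level separates the 2 members that differed most among the abundant ones.

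*Kcnq1* encodes the pore subunit of a voltage-gated potassium channel of heart and inner ear. The table places it from 143107254 to 143427184 in a locus of 3 entries, together with *Kcnq1ot1* and *4933417O13Rik*. *Kcnq1* was at 0.430 FPKM in the mutant and 0.365 FPKM in the wildtype pool, and *Kcnq1ot1* was at 0.152 and 0.129 FPKM. The level of *Kcnq1* was 2.83 times that of *Kcnq1ot1* in the mutant and 2.82 times in the wildtype pool. *Kcnq1ot1* is transcribed antisense to *Kcnq1*, and the libraries did not keep the strand, so reads of the overlapping genes cannot be told apart and these values are uncertain.

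*Ascl2*, a basic helix-loop-helix factor required for the spongiotrophoblast of the placenta, lies at the centromeric end, from 142966822 to 142969264. Its transcripts were nearly absent from these embryos, at 0.195 FPKM in the mutant and 0.141 FPKM in the wildtype pool, the lowest level of the 10 genes in both.

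*Tspan32* encodes a tetraspanin, a membrane protein with 4 spans, found mainly in blood cells. It lies from 143005046 to 143019485 and was at 1.78 FPKM in the mutant and 0.792 FPKM in the wildtype pool. The log2 ratio was 1.07, just past 2-fold, and the gene passed the filter on mean FPKM only through its mutant value. At this low level ratios spread widely. Of the 500 entries nearest in mean FPKM, 22 (4.4%) were at least as high, and their central 95% ran from -0.63 to 1.29. With 1 FPKM added to each value in place of 0.1, the log2 ratio was 0.63, below 2-fold.

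Markers of blood cells were also higher in the mutant pool. A list of 15 such genes was drawn up after *Tspan32* was seen to be higher. Of its 11 entries that passed the filter all were higher, 4 of them at least 2-fold, with a median log2 ratio of 0.97. Among these 11, *Itga2b* passed the filter only through its mutant value, as *Tspan32* did. The levels of the list, summed over all 14 genes found, were 12724 FPKM in the mutant and 6032 FPKM in the wildtype pool. Almost all of this came from the globins *Hba-x*, *Hbb-y* and *Hbb-bh1*. *Hba-x*, an embryonic alpha-like globin, was at 4602 and 2274 FPKM. *Pf4*, a chemokine of platelets, was at 10.6 and 1.53 FPKM. *Ptprc*, which marks white blood cells, was at 0.0964 FPKM in the mutant pool and listed at 0 in the wildtype pool. The part of blood cells in the *Tspan32* result was not tested, and in whole embryos fewer cells of a type cannot be told apart from less RNA per cell.

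*Cd81* encodes a widely expressed tetraspanin of the cell surface. It shares its locus, from 143032621 to 143067930, with the entry *R74862*, and was at 96.5 FPKM in the mutant and 93.1 FPKM in the wildtype pool. Next to it lies *Tssc4*, whose protein takes part in assembly of the splicing machinery, from 143068110 to 143071087. *Tssc4* was at 30.8 FPKM in the mutant and 28.0 FPKM in the wildtype pool.

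On the other side of *Phlda2*, 11053 bp away, the entry of the histone chaperone gene *Nap1l4* runs from 143513578 to 143549296. Its levels were 120 FPKM in the mutant and 114 FPKM in the wildtype pool, and it was the most abundant member in the latter. *Osbpl5*, for a carrier of lipids between membranes, lies from 143688762 to 143741963 and was at 2.89 and 2.59 FPKM. The log2 ratios of *Cd81*, *Tssc4*, *Nap1l4* and *Osbpl5* ran from 0.05 to 0.15. For each of these 4 genes, between 15.2% and 27.0% of the 500 entries of nearest mean FPKM were at least as high. That of *Cd81* turned to -0.003 when the ratios were centred on housekeeping genes.

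By level in the wildtype pool the members fell into an abundant set of *Nap1l4*, *Cdkn1c* and *Cd81* near 100 FPKM, a middle set of *Phlda2* and *Tssc4* near 30 FPKM, *Osbpl5* at 2.59 FPKM, and 4 genes below 1 FPKM. FPKM is scaled to length, but that alone does not make levels of different genes comparable, so these sets are a rough description. In the mutant pool *Cdkn1c* stood above *Nap1l4*, and *Tssc4* above *Phlda2*. Whether neighbours in this order differ beyond the spread between embryos cannot be said.

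The domain as a whole was next compared with its surroundings. The stretch from *Ascl2* to *Osbpl5* covers 775 kb and holds 20 entries, of which 11 passed the filter. Apart from the members these were *R74862*, *Cars* and 2 entries of *Tnfrsf22*, with log2 ratios from -0.14 to 0.84. *Cars*, for a transfer RNA synthetase, was at 16.6 FPKM in the mutant and 18.2 FPKM in the wildtype pool. The higher of the *Tnfrsf22* ratios belonged to an entry at 1.82 and 0.973 FPKM, which passed the filter only through its mutant value. The other entry of this decoy receptor gene was at 2.65 and 2.66 FPKM. Both share a locus with *Tnfrsf23*, and the libraries did not keep the strand, so the values of these entries are uncertain. Within 1 Mb on either side of the stretch, 17 further entries passed, with log2 ratios from -0.31 to 0.62 and a median of -0.01. Of the 26 entries of this window other than *Phlda2* and *Tspan32*, 0 were past 2-fold, against 1.49% of all entries that passed. A count of 0 in so few entries is near that share, and nothing is read from it.

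**Figure D3:**
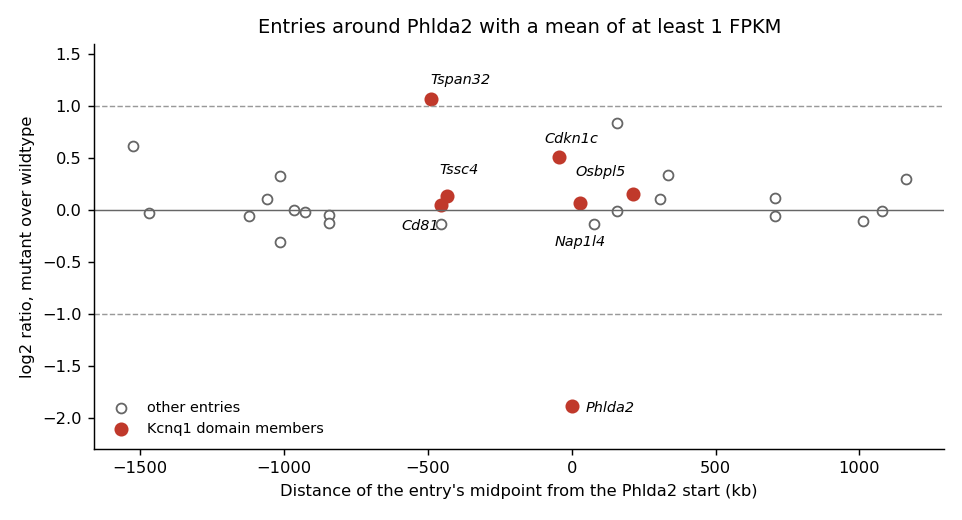
Log2 ratio of mutant over wildtype FPKM (0.1 FPKM added) for the 28 entries with a mean of at least 1 FPKM in the domain and 1 Mb on either side, against the distance of each entry's midpoint from the start of *Phlda2* in kb, with members in red and dashed lines at 2-fold. *Phlda2* at -1.89 lies far below its neighbours, and *Tspan32* at 1.07 is the other point past 2-fold.

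Of the 10 other domain genes listed, 5 entries passed the filter, with a median log2 ratio of 0.11. None (0) was past 2-fold, against 1.49% of all entries that passed. *Dhcr7*, for the last step of cholesterol synthesis, was at 35.0 FPKM in the mutant and 27.8 FPKM in the wildtype pool. In the adjoining imprinted domain *H19* and *Igf2* were at a high level and nearly equal in both pools. *H19*, a maternally expressed noncoding RNA, was at 952 and 964 FPKM, and *Igf2*, a paternally expressed growth factor, at 516 and 532 FPKM. The 4 entries of that list that passed had log2 ratios from -0.12 to 0.00. Of the other 3, *Ins2* and *Nctc1* were listed at 0 in both pools and *Th* was at 0.935 and 0.430 FPKM.

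The gene families and partners of the members were examined in the same way. *Phlda1* and *Phlda3*, which encode the relatives of *Phlda2*, were at 18.4 and 6.58 FPKM in the mutant and 20.9 and 5.72 FPKM in the wildtype pool. Their log2 ratios were -0.18 and 0.20. Of the CDK inhibitors other than *Cdkn1c*, the 3 that passed were higher in the mutant pool, with log2 ratios from 0.14 to 0.36. *Cdkn1b*, which encodes p27, was at 17.5 and 15.8 FPKM, and *Cdkn2d* at 14.6 and 13.3 FPKM. Of 12 genes for CDKs, cyclins and PCNA, partners of these inhibitors, 5 were higher and 7 lower, with a median of -0.04. Past 2-fold were 0, against 1.49% of all entries that passed. *Cdk4* was at 646 and 643 FPKM and *Pcna* at 440 and 481 FPKM.

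Among the tetraspanins other than members, 10 were higher and 9 lower. *Tspan17*, at 2.02 and 0.856 FPKM, was the 1 past 2-fold, against 1.49% of all entries that passed. It passed the filter only through its mutant value, as *Tspan32* did. *Tspan3* and *Cd63*, the most abundant of these, were at 129 and 99.6 FPKM in the mutant and 137 and 90.5 FPKM in the wildtype pool. *Cd53* and *Cd37*, tetraspanins of white blood cells, were at 0.123 and 0.214 FPKM in the mutant and 0.0368 and 0.0653 FPKM in the wildtype pool, too low for a ratio. In the Nap1 family *Nap1l1* was at 686 and 806 FPKM, and the 4 genes other than *Nap1l4* had a median log2 ratio of 0.05. The 10 oxysterol-binding proteins other than *Osbpl5* had a median of 0.01, with *Osbpl9* at 16.1 and 15.8 FPKM.

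Most relatives of *Kcnq1* and *Slc22a18* were scarce at this stage. Of the Kcnq channels and their Kcne subunits, 2 passed, *Kcne1l* at 4.48 and 3.91 FPKM and *Kcne3* at 2.88 and 2.69 FPKM. Of the Slc22 carriers, 3 passed, with a median of 0.02 and *Slc22a17* at 7.52 and 6.87 FPKM.

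Factors known for silencing at imprinted domains, among them DNA methyltransferases, polycomb proteins and histone methyltransferases, were also compared. Of 16 entries that passed, 8 were higher and 8 lower, with log2 ratios from -0.85 to 0.17 and a median of 0.00. Past 2-fold were 0, against 1.49% of all entries that passed. The lowest were the less abundant of the *Ctcf* entries, at 1.69 FPKM in the mutant and 3.12 FPKM in the wildtype pool, and *Dnmt3b*, a de novo DNA methyltransferase, at 13.5 and 18.5 FPKM. *Trim28*, a corepressor that keeps imprints in the early embryo, was at 424 FPKM in the mutant and 427 FPKM in the wildtype pool. *Uhrf1*, which guides maintenance methylation of DNA, was at 129 and 123 FPKM. The 15 housekeeping genes had a median of 0.05.

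**Figure D4:**
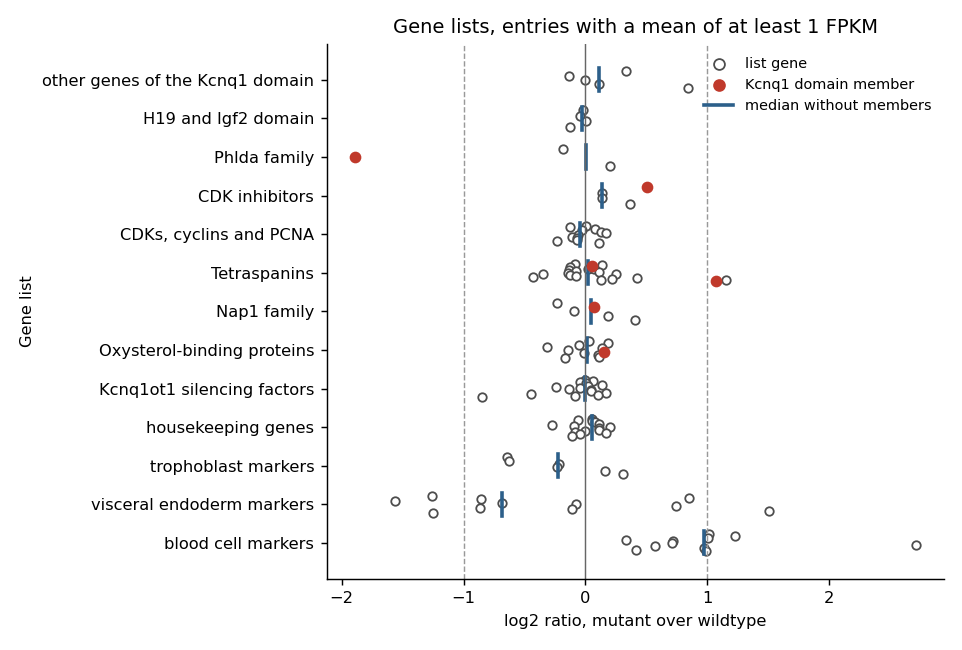
Log2 ratio of mutant over wildtype FPKM (0.1 FPKM added) for entries of 13 gene lists with a mean of at least 1 FPKM, with members in red, other genes as open circles, the median of these as a blue bar and dashed lines at 2-fold. *Phlda2* lies apart from its family at 0.01, and the visceral endoderm (-0.69) and blood cell (0.97) lists lie away from 0.

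*Phlda2* is known for its high level in placenta and in the visceral endoderm of the yolk sac, so markers of both were counted. Of 18 visceral endoderm genes 11 passed the filter, 8 lower and 3 higher in the mutant pool. Their median log2 ratio was -0.69, against -0.01 over all entries that passed. Of the 11, 3 were at least 2-fold lower and 1 at least 2-fold higher, against 0.514% and 0.979% of all entries that passed. Past 2-fold were *Car4* (10.3 and 24.8 FPKM), *Ttr* (2.48 and 7.51 FPKM) and *Apom* (0.938 and 2.37 FPKM), which were lower, and *Apoa2* (2.77 and 0.913 FPKM), which was higher. *Apom* and *Apoa2* passed the filter only through the pool where they were higher. *Afp*, the major secreted protein of this tissue, was at 14.7 FPKM in the mutant and 8.10 FPKM in the wildtype pool. *Cubn* and *Amn*, which encode the uptake receptor of this tissue and averaged below 1 FPKM, were at 0.157 and 0.127 FPKM in the mutant and 1.37 and 0.444 FPKM in the wildtype pool. *Hnf4a*, also below the filter, was at 0.449 and 0.401 FPKM. *Trf* was higher, at 4.43 and 2.60 FPKM, and *Foxa2* (3.81 and 4.03 FPKM) and *Sox17* (2.28 and 2.48 FPKM) were nearly equal. With genes below the filter included, 14 of the 18 were lower and 4 higher. Summed over the list, the level was 55.4 FPKM in the mutant and 80.2 FPKM in the wildtype pool. The yolk sacs, which hold this tissue, had been taken for genotyping. The part of visceral endoderm in the *Phlda2* result was not tested.

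Of the trophoblast markers 6 of 19 entries passed, with a median of -0.22. Past 2-fold were 0, against 1.49% of all entries that passed. *Prl3d1*, *Prl2c2*, *Prl4a1*, *Tpbpa* and *Ctsq*, which define placental lineages, were listed at 0 in both pools. Other markers of the list were not absent. *Plac1* was at 3.14 FPKM in the mutant and 3.70 FPKM in the wildtype pool. *Gata3* was at 3.45 and 3.08 FPKM and *Tfap2c* at 2.95 and 2.36 FPKM. *Prl3b1* had a mean of 0.867 FPKM, below the filter. The part of trophoblast in the *Phlda2* result was not tested. The summed level of the list, 112 FPKM in the mutant and 163 FPKM in the wildtype pool, came mostly from *Krt8* and *Krt18*, keratins that many embryonic epithelia also express. *Krt8* was at 46.8 and 73.1 FPKM and *Krt18* at 42.3 and 65.4 FPKM. Of 4 markers of the maternal decidua, *Des* and *Dcn*, which embryos also express, passed, with a median of 0.43.

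The entries most like *Phlda2* were sought by their distance in 2 values, the log2 wildtype FPKM and the log2 ratio, and say nothing of shared control. The nearest 5 were *Car4*, *Nr6a1*, an entry shared by *2700023E23Rik* and *Snora26*, and 2 entries without a gene symbol, on the X chromosome and on chromosome 14. *Car4*, a carbonic anhydrase anchored in the membrane, lay at a distance of 0.70 on this scale. *Nr6a1*, an orphan nuclear receptor of early development, was at 19.6 FPKM in the mutant and 43.3 FPKM in the wildtype pool, at a distance of 0.91.

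The transcript of *Phlda2* is short and rich in GC, at 757 bases and 56.5% GC for the longest GENCODE M21 transcript. Of the entries that passed the filter and had an annotated transcript, 2.3% were as short and 16.2% as rich in GC. Among the 500 entries nearest in length and GC content the median log2 ratio was 0.06, and 0 of them were as low as *Phlda2*. Since *Phlda2* was picked by its ratio, this rank is a description, and the part of length or GC content was not tested. For *Cdkn1c*, at 1901 bases and 59.4% GC, 39 of 500 such entries (7.8%) were at least as high.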

How the data were processed

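Total RNA of 6 male embryos (E9.5) was sequenced, and the labels' genotype gave the groups, Smchd1+/+ (n = 3) and Smchd1MommeD1/MommeD1 (n = 3). The authors aligned single-end reads of nondirectional libraries to MM10 with TopHat 2 and compared the genotypes with Cuffdiff. The submitters' processing notes name TopHat2 2.0.6, Bowtie2 2.0.2 and Cuffdiff 2.0.2. The deposited values are FPKM, 1 per genotype and locus, pooled by the authors over embryos. The table's columns of fold changes, test statistics, p-values and significance calls hold the authors' own comparison and were not used.

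Low FPKM values showed no whole-read steps, so depth is unknown and no counting interval was computed. Log2 ratios of mutant over wildtype were computed with 0.1 FPKM added, over entries averaging 1 FPKM or more. A ratio of 2-fold was counted, and no test was run. Table starts count from 0 and were raised by 1, since the RefSeq start then matched for 8974 of 20271 symbols, against 572 otherwise. Genes were named by a rule: all members, entries that passed between the first and last member, the most abundant and the past-2-fold members of gene lists, and the 5 entries most like *Phlda2*. Other genes, such as *Cubn*, *Amn*, *Trf*, *Hnf4a*, *Itga2b*, *Plac1*, *Prl3b1*, *Cd53*, *Cd37* and *Dnmt3b*, were named after their values were seen. Members and lists were chosen with earlier results of these data known. A list of relatives of 1 member is not reported here. Steps were tested on simulated data. Promoters are those of RefSeq (GRCm38.p6) and transcripts those of GENCODE M21 (GRCm38, the assembly of MM10). Alternatives covered pseudocount, filter, fold threshold, scaling and local centring. Calculations used pandas 2.3.3, numpy 2.4.6 and, for nearest entries, scipy 1.17.1 in Python 3.11.15, and plots used matplotlib 3.10.9.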

Additional observations from a re-analysis of the deposited data

How the results depend on the processing

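*Phlda2* stayed between -1.95 and -1.78 on the log2 scale in all 11 alternatives, *Cdkn1c* between 0.44 and 0.55, and the median of the members between 0.07 and 0.18. A change of filter keeps or drops a gene but leaves its ratio as it is. The scalings shifted all ratios by only -0.05 to 0.04. Many of the 75 member ratios under alternatives therefore could not move by 0.25, and their count says little about robustness. Of the 75, 74 moved by less than 0.25. The exception was *Tspan32*, at 0.63 with 1 FPKM added. Members at least 2-fold higher then numbered 0, as they did for entries averaging 5 FPKM or more, with a 3-fold threshold and with centring on entries of like mean FPKM, while *Phlda2* stayed past the threshold in all 13 settings.

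Over the whole table, entries higher and lower numbered 54 and 41 with 1 FPKM added, 357 and 148 for averages of 0.1 FPKM or more, 385 and 164 with no filter, 37 and 36 for 5 FPKM or more, 438 and 183 at 1.5-fold, and 32 and 16 at 3-fold, against 122 and 64 reported. With centring on entries of like GC content and length, which also left out entries without an annotated transcript, 37 were lower. The 4 other scalings shifted all ratios by -0.05 to 0.04.

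Medians of lists moved by more than 0.25 in 3 of 175 cases, although the scalings alone could not move them that far. These were the Nap1 family (-0.23) and trophoblast markers (-0.63) for averages of 5 FPKM or more, which keeps fewer genes, and blood cell markers with 1 FPKM added (0.66).

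No paired analysis was possible because the table gives 1 pooled value per genotype. For the same reason the alternatives without 1 embryo cannot be computed from it, and the spread within a genotype is not known.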
